A study of Mus musculus with 6 samples.

Results

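The integrated stress response genes Atf4, Ddit3, Trib3, Asns, Chac1, Sesn2, Atf5, Gdf15, Mthfd2 and Fgf21 were chosen by name, as the rows of the array files whose gene name is one of these symbols. They are 10 of the 35514 gene names on the array and are read by 11 probes of 60 bases, with a pair of probes for Atf4 and 1 for each other gene. The RNA came from cardiomyocyte fractions of adult H19 knockout mice and of their wild-type littermates, 3 arrays per genotype. Both genotypes had undergone transverse aortic constriction (TAC), an operation that narrows the aortic arch so that the left ventricle pumps against a raised pressure, and cells were isolated by retrograde perfusion with total RNA taken 6 weeks later. H19 itself is a maternally expressed, imprinted long non-coding RNA. The allele behind the knockout and the strain, sex and exact age of the mice are not given in the sources used here, nor whether each array is 1 mouse, and unoperated hearts were not analysed here. If arrays of a genotype share a pool or an extract, the p-values below measure only a technical spread.

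In the integrated stress response, kinases that sense unfolded protein, missing amino acids, haem shortage or double-stranded RNA phosphorylate the translation factor eIF2. General translation then slows while the mRNA of the transcription factor ATF4 is translated more, because upstream reading frames in its leader no longer divert the ribosome, so Atf4 mRNA reports only in part on ATF4 protein. ATF4 acts with C/EBP partners on genes of amino acid supply, glutathione turnover and cell death. In heart muscle the response is best known from mitochondrial disease and from overload, where GDF15 and FGF21 are secreted as hormones.

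The element that ATF4 and its C/EBP partners are known to bind is shown where a member's promoter holds it. The core of the C/EBP-ATF response element, written TGATGNAA and searched on both strands, was looked for in the RefSeq promoter windows of assembly GRCm38.p6, which run from 250 bases before to 50 bases after each annotated start. All 10 genes had a window, 12 windows in all, and 4 genes held a match. Of the 27025 genes with a window, 4.51% held one. The matches lay in Asns, Chac1, Fgf21 and Trib3, and are printed in capitals below, 5′ to 3′ on the strand of the gene. In Chac1, Fgf21 and Trib3 the element reads on the opposite strand and so appears in reverse complement. Positions give the first base of the match relative to the annotated start, negative before it.
Asns, chr6:7693210-7693459, minus strand, the 250 bases before the start, match beginning at -23: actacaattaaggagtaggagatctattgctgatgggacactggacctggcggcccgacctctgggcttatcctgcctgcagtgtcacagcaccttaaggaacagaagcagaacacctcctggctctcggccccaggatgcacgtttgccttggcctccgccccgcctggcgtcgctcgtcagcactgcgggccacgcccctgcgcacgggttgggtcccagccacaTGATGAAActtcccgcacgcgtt
Chac1, chr2:119350992-119351241, plus strand, the 250 bases before the start, match beginning at -193: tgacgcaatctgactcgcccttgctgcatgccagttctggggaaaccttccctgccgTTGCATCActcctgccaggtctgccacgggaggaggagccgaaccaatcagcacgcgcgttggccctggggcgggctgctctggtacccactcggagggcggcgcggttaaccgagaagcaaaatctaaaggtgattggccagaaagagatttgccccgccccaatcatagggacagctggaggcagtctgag
Fgf21, chr7:45615491-45615740, minus strand, the 250 bases before the start, match beginning at -139: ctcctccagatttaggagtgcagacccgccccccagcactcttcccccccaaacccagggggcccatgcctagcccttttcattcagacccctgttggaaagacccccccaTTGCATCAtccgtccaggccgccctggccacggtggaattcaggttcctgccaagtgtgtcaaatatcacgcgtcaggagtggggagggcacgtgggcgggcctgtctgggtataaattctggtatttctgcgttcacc
Trib3, chr2:152344028-152344057, minus strand, 30 bases around a match beginning at 15: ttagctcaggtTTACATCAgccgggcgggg
The letters TGATGNAA were not found in the windows of Atf4, Ddit3, Sesn2, Atf5, Gdf15 and Mthfd2, which says only that they are not in these windows. A match is a description of the sequence and not a measured site.

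A level below is the log2 of the processed signal of a probe minus the 75th percentile of the signals on its array, so 0 is the 75th percentile. Levels of different probes are not comparable, and only differences between genotypes, knockout minus wild type, are set beside each other. Between 48.8% and 58.6% of the 59305 non-control spots on an array were well above background, and none was saturated. Replicate 1 of each genotype was hybridised on slide 1 and replicates 2 and 3 on slide 2, so each difference is also given within each slide. The H19 probe had levels of -5.97, -6.72 and -6.28 on the knockout arrays, where it was not well above background, against 1.41, 0.46 and 0.53 on the wild-type arrays. The fitted H19 difference was -7.12 (adjusted p = 0.00236, limma), and -4.21 with its probes averaged. This probe entered the test only through the wild-type arrays, where it is high. Set against the lowest signal well above background, H19 was at least 32.7-fold lower in the knockout. All 6 arrays thus carry the H19 signal of their label. The 12 cardiomyocyte markers were well above background on every array, among them Myh6, Tnnt2 and Ryr2. Of 21888 genes tested with limma, 7 passed an adjusted p of 0.05 (0.032% of genes) and 1 of these was higher in the knockout (0.00457%).

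Of the 10 genes, 8 were bright enough to be tested and none passed the test. Their adjusted p-values lay between 0.622 and 0.9997 (limma, n = 3 per genotype), and 1 of them, Ddit3, had an unadjusted p below 0.05, against 7.94% of all genes. The genes with the clearest separation between genotypes were the transcription factors Atf4, Ddit3 and Atf5, for which all 3 knockout arrays lay above all 3 wild-type arrays, as they did for 1.83% of all genes. For none of the 8 did all knockout arrays lie below the wild-type arrays, against 8.67% of all genes. The difference was above 0 for 7 genes and below 0 for Sesn2, against 36.3% of all genes above 0. That background share depends on the scaling, and was 46.3% after quantile normalization and 81.8% after scaling to the probe median (median scaling). The median difference of the 8 genes was 0.23, against -0.06 over all genes tested. The genes were chosen with earlier results known, so these counts describe the genes and are not a test. In RNA from a mixed fraction, more cells of a type and more RNA per cell cannot be told apart, and this applies to every difference given here.

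**Figure D1:**
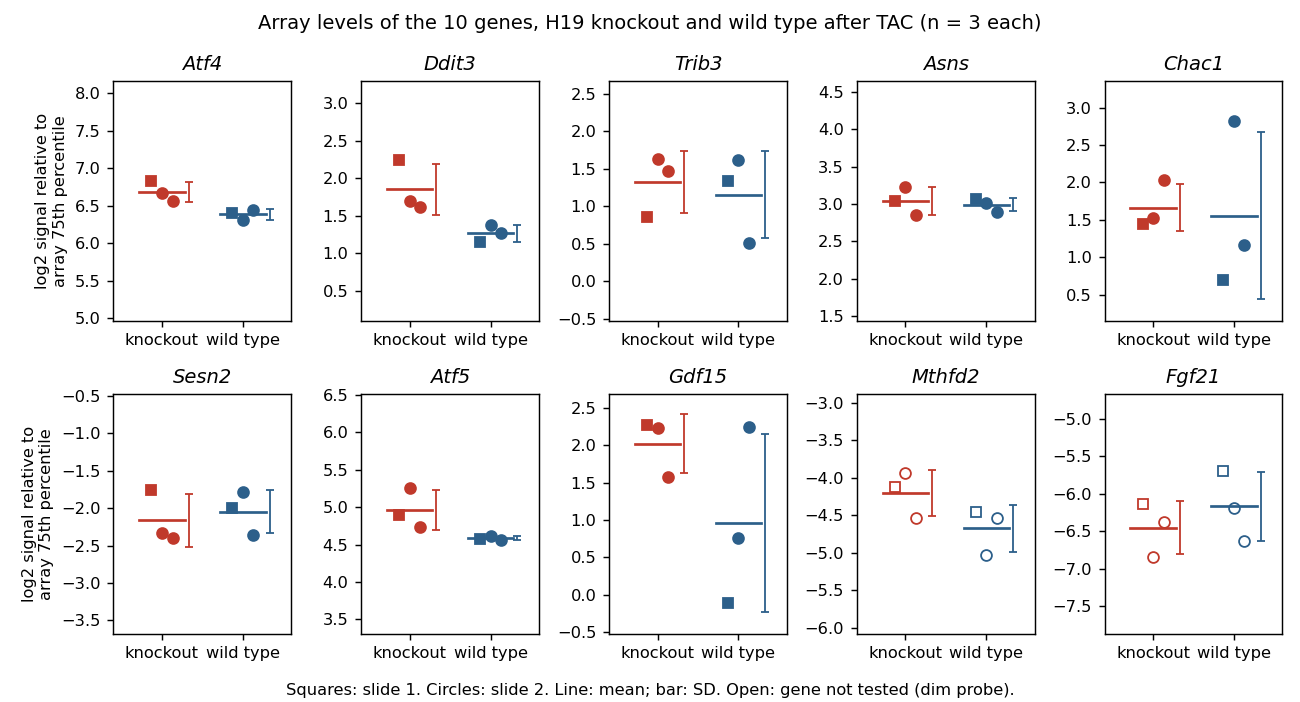
Levels of the 10 genes, as log2 signal relative to the 75th percentile of the array, with knockout arrays left and wild-type arrays right (n = 3 each, every panel spanning the same number of log2 units). Points are arrays (squares slide 1, circles slide 2), lines are means, bars are SD, and open points mark Mthfd2 and Fgf21, which were not tested. Atf4, Ddit3 and Atf5 show no overlap between genotypes, while the wild-type arrays of Gdf15 and Chac1 spread over more than 2 log2 units.

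ATF4 is the factor the response turns on, and its mRNA is also transcribed under stress. Its brighter probe, at chr15:80087902-80087961 (mm9, plus strand), had levels of 6.83, 6.67 and 6.56 on the knockout arrays, against 6.40, 6.30 and 6.45 on the wild-type arrays. The means were 6.69 ± 0.13 in the knockout and 6.38 ± 0.07 in wild type (SD, n = 3 each), and every knockout array lay above every wild-type array. The difference was 0.30 (SE 0.15, 95% interval -0.04 to 0.65), a 1.23-fold higher mean that did not pass the test (adjusted p = 0.644, limma). Atf4 was among the steadier genes, with a spread within genotypes larger than that of 7.62% of genes, and its difference was 0.43 on slide 1 and 0.24 on slide 2. The other Atf4 probe, 1263 bases upstream at chr15:80086639-80086698, gave 0.91, 0.76 and 0.67 on the knockout arrays, against 0.36, 0.31 and 0.48 on the wild-type arrays. Both probes therefore separated the genotypes, with differences of 0.40 (SE 0.15) upstream and 0.30 (SE 0.15) downstream. In the fit across 29989 probes, of which 0.0467% passed, neither Atf4 probe did, with adjusted p = 0.598 upstream and adjusted p = 0.625 downstream (limma).

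Ddit3 encodes CHOP, a C/EBP family factor made when the response persists and tied to cell death. Its probe lies at chr10:126732518-126732821 (mm9, plus strand), a span of 304 bases for a probe of 60, so it reads across a splice junction and does not match unspliced genomic DNA in 1 piece. The probe is shown because it alone reads the gene with the smallest p of the 10.
Ddit3 probe: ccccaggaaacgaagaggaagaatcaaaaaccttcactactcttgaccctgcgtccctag
The levels were 2.24, 1.69 and 1.62 on the knockout arrays, against 1.15, 1.37 and 1.27 on the wild-type arrays. The means were 1.85 ± 0.34 in the knockout and 1.27 ± 0.11 in wild type (SD, n = 3 each), with knockout replicate 1 well above the other arrays. The difference of 0.59 (SE 0.20, 95% interval 0.10 to 1.07) had an unadjusted p of 0.0242 (limma) and did not pass after adjustment (adjusted p = 0.622). Ddit3 ranked 816 by p among all genes tested. The difference came to 1.09 within slide 1, 0.33 within slide 2 and 0.39 with knockout replicate 1 left out.

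Atf5 is a close relative of Atf4, also controlled by reading frames in its leader, and in mammals it has been tied to the stress response of mitochondria. Its levels were 4.89, 5.25 and 4.73 on the knockout arrays, against 4.58, 4.61 and 4.56 on the wild-type arrays (chr7:52067627-52067686, mm9, minus strand). The wild-type arrays lay close together and below every knockout array, with means of 4.96 ± 0.27 in the knockout and 4.58 ± 0.03 in wild type (SD, n = 3 each). The difference was 0.38 (SE 0.18, 95% interval -0.04 to 0.79), or 1.30-fold, and did not pass (adjusted p = 0.638, limma). It was of like size on both slides, at 0.32 and 0.40. Without knockout replicate 2 the Atf5 difference was 0.23.

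Trib3, Chac1 and Sesn2 are effectors that ATF4 induces, alone or with CHOP. TRIB3 is a pseudokinase that binds AKT and feeds back on ATF4. Its levels were 0.85, 1.64 and 1.47 on the knockout arrays, against 1.34, 1.62 and 0.51 on the wild-type arrays (chr2:152163161-152163220, mm9, minus strand). The groups overlapped, and the difference of 0.16 (SE 0.34, 95% interval -0.64 to 0.97) took opposite signs on the slides, -0.49 on slide 1 and 0.49 on slide 2.

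CHAC1 degrades glutathione and is a well-known ATF4 target. Chac1 had levels of 1.44, 1.52 and 2.03 on the knockout arrays, against 0.69, 2.82 and 1.16 on the wild-type arrays (chr2:119179990-119180049, mm9, plus strand). Wild type held both the lowest and the highest array, and the spread within genotypes was larger than that of 97.1% of genes. The difference was 0.11 (SE 0.53, 95% interval -1.15 to 1.36), an interval that holds both a doubling and a halving.

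Sesn2 encodes Sestrin2, a leucine sensor that restrains the growth kinase complex mTORC1. Its levels were -1.76, -2.33 and -2.40 on the knockout arrays, against -1.99, -1.79 and -2.36 on the wild-type arrays (chr4:132048858-132048917, mm9, minus strand). The groups overlapped. The difference was -0.12 (SE 0.24, 95% interval -0.68 to 0.45) and turned to 0.045 after quantile normalization and to 0.32 after median scaling, which itself moved the median of all genes to 0.37.

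Asns and Mthfd2 stand for the metabolic arm. Asparagine synthetase, encoded by Asns, makes asparagine from aspartate and glutamine and is a standard readout of amino acid shortage. Asns had levels of 3.04, 3.23 and 2.85 on the knockout arrays, against 3.06, 3.01 and 2.89 on the wild-type arrays (chr6:7625171-7625228, mm9, minus strand). The genotypes overlapped with means of 3.04 ± 0.19 in the knockout and 2.99 ± 0.09 in wild type (SD, n = 3 each), and the difference was 0.05 (SE 0.16, 95% interval -0.32 to 0.43).

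Mthfd2 encodes a mitochondrial folate enzyme that most adult tissues hold at low levels and that rises in mitochondrial myopathy. Its probe was well above background on 1 of the 6 arrays, knockout replicate 2, so it was not tested and no fold is given. The levels were -4.12, -3.94 and -4.54 on the knockout arrays, against -4.46, -5.03 and -4.54 on the wild-type arrays (chr6:83256518-83256577, mm9, minus strand), values near the background of the array.

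The secreted members differed in whether they could be measured. GDF15 is a hormone of the TGF-beta family that acts on a hindbrain receptor and lowers appetite, and stressed heart muscle releases it. Gdf15 had levels of 2.27, 2.23 and 1.57 on the knockout arrays, against -0.11, 0.76 and 2.24 on the wild-type arrays (chr8:73153293-73153352, mm9, minus strand). Wild-type replicate 3 lay among the knockout arrays and the other wild-type arrays lay below all of them, giving means of 2.02 ± 0.39 in the knockout and 0.96 ± 1.19 in wild type (SD, n = 3 each). The difference of 1.06 (SE 0.57, 95% interval -0.29 to 2.40), or 2.08-fold, was larger in size than that of 97.99% of genes and did not pass (adjusted p = 0.679, limma). The spread of Gdf15 within genotypes was larger than that of 97.8% of genes. The slides gave 2.38 on slide 1 and 0.40 on slide 2. Single arrays moved the Gdf15 difference to 1.70 without wild-type replicate 3 (adjusted p = 0.0512) and to 0.52 without wild-type replicate 1.

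FGF21 is a metabolic hormone made mostly by the liver, and by muscle under mitochondrial stress. Its probe (chr7:52869305-52869364, mm9, minus strand) stayed below the background criterion on all 6 arrays, at -6.14, -6.84 and -6.37 on the knockout arrays, against -5.70, -6.19 and -6.63 on the wild-type arrays. No difference in Fgf21 could be detected at this signal. Klb, the co-receptor of FGF21, and Gfral, the receptor of GDF15, also stayed below it on all 6.

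**Figure D2:**
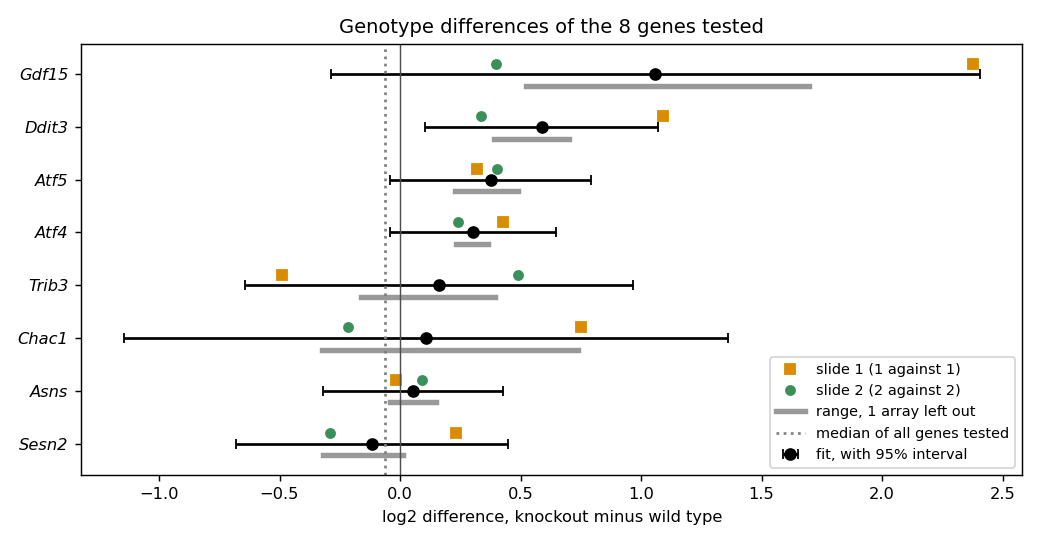
Genotype differences of the 8 tested genes on the log2 scale, knockout minus wild type. Black points are fitted differences with 95% intervals (n = 3 per genotype), orange squares the difference within slide 1 and green circles that within slide 2, grey bars the range with 1 array left out, and the dotted line the median of all genes tested, -0.06. The interval of Ddit3, from 0.10 to 1.07, lies above 0, and the slides fall on opposite sides of 0 for Trib3, Chac1, Asns and Sesn2.

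The genes divided evenly by slide, since 4 of the 8 (Atf4, Ddit3, Atf5 and Gdf15) had a difference above 0 on both slides, against 10.5% of all genes, and 4 had opposite signs. The median of the 8 was 0.37 on slide 1 and 0.29 on slide 2, against -0.02 and -0.13 over all genes. Relative to its mean over the 6 arrays, the average tested member stood at 0.21, 0.22 and 0.04 on the knockout arrays, against -0.37, 0.07 and -0.17 on the wild-type arrays. Wild-type replicate 2 thus overlapped the knockout arrays in this average.

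Only genes with established symbols were compared with Atf4 for the closest pattern over the 6 arrays. Closest was Jund, a subunit of the AP-1 transcription factor (Pearson r = 0.988), then Fam122b (r = 0.983) and Tmsb15b2 (r = 0.978). These r values describe 6 arrays that include the genotype difference itself, and 0.443% of the genes tested had r above 0.9. Among the members, Ddit3 followed Atf4 most closely (r = 0.91), followed by Atf5 (0.71) and Gdf15 (0.69). Asns had r = 0.30, Sesn2 -0.02, Trib3 -0.20 and Chac1 -0.23. Jund had levels of 6.11, 6.01 and 5.80 on the knockout arrays, against 5.62, 5.45 and 5.69 on the wild-type arrays, a difference of 0.39 (SE 0.16) that did not pass (adjusted p = 0.627, limma).

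Jund was placed on a list of 20 immediate early and dissociation genes, many of them known to rise in minutes when tissue is digested or cells are stressed. All 18 tested members of that list were above 0 (36.3% of all genes), with a median of 0.60. For 8 of them every knockout array lay above every wild-type array (1.83% of all genes), though no member of the list passed the test. The mean of the list relative to the 6 arrays was 0.48, 0.38 and 0.17 on the knockout arrays, against -0.54, -0.49 and -0.01 on the wild-type arrays. Its summed linear level, in units of the 75th percentile of the array, ranged from 525 to 666 in the knockout and from 333 to 539 in wild type. The median difference of the list was 1.11 on slide 1 and 0.35 on slide 2. The part of these genes in the Atf4, Ddit3 and Atf5 differences was not tested.

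Markers of other cells moved differently. The 12 fibroblast markers were all above 0 (36.3% of all genes), with a median of 0.59, but at -0.75 on slide 1 and 1.28 on slide 2. Their summed level ranged from 275 to 570 in the knockout and from 179 to 362 in wild type. Slide 1 held only replicate 1 of each genotype, so a slide 1 value compares 1 array with 1. All 12 macrophage and myeloid markers were below 0, where 36.3% of all genes were above 0. Their median was -0.41, with summed levels of 43.8 to 79.8 in the knockout and 62.3 to 87.6 in wild type. Every fibroblast and macrophage marker was well above background on all 6 arrays. The cardiomyocyte markers had a median of -0.05, with 4 above 0 and 8 below, near the share of all genes (36.3% above 0). For 3 of the 12, every knockout array lay below every wild-type array (8.67% of all genes), and none of the 12 passed the test. Summed levels of the cardiomyocyte markers were 2474 to 2829 in the knockout and 2756 to 2999 in wild type. Of the 7 atrial markers, 6 were tested, with a median of -1.39 and for 3 of them every knockout array below every wild-type array (8.67% of all genes), while Bmp10 was not well above background. The tested atrial markers ran from -4.84 to 0.43, with 3 above 0 (36.3% of all genes) and 3 below. At an unadjusted p below 0.05, 3 were lower in the knockout (6.95% of all genes). None of the 6 passed after adjustment (smallest adjusted p = 0.488, limma). Taken alone, slide 1 gave an atrial median of -1.75, and slide 2 gave -1.49. The summed level of the atrial markers ranged from 255 to 300 in the knockout and from 298 to 332 in wild type. Of 6 hepatocyte markers, 3 were tested, 1 above 0 and 2 below (36.3% of all genes above 0). Their differences lay between -0.44 and 1.36 with a median of -0.39, and none passed. Serpina1a, at 1.36, had every knockout array above every wild-type array (1.83% of all genes), while Alb and Apoa1 stayed below the background criterion on all 6 arrays. The part of these cells in the member differences was not tested.

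**Figure D3:**
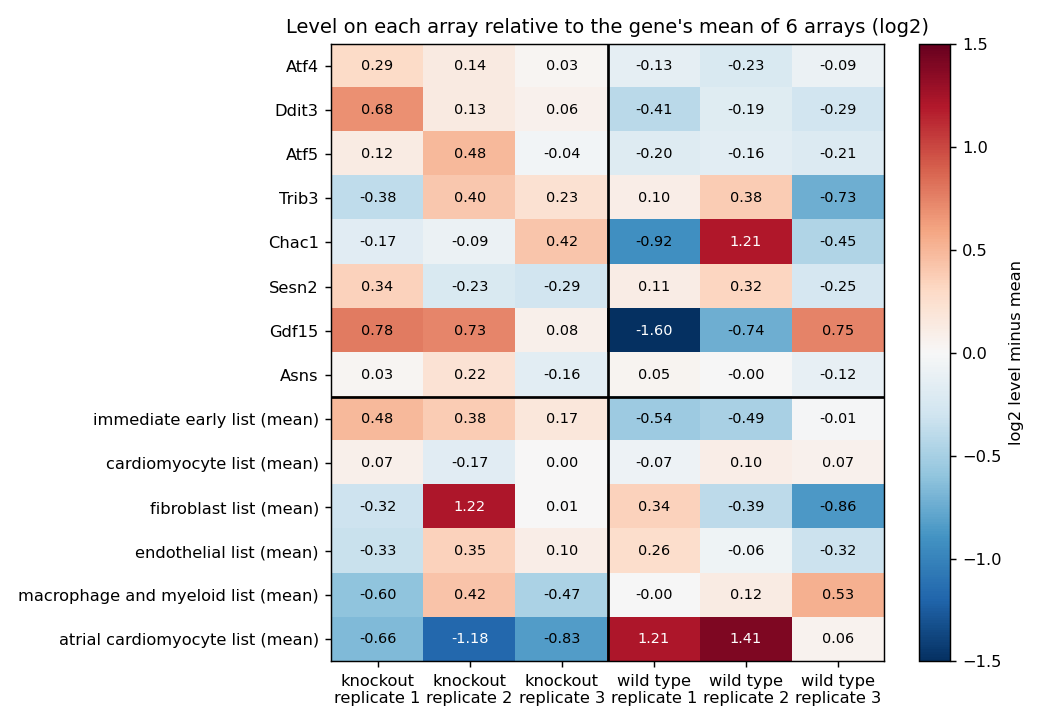
Level of each tested member on each array minus its mean over the 6 arrays, and the same averaged over 6 marker lists (log2, knockout arrays left, wild-type arrays right, red above the mean and blue below). Atf4, Ddit3 and the immediate early list are red or near 0 on the knockout arrays and blue or near 0 on the wild-type arrays, while the fibroblast list is highest on knockout replicate 2, at 1.22.

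Around these 10 genes, 10 further lists covered the rest of the pathway with 120 genes, of which 114 were tested. None passed the adjusted threshold, and the smallest adjusted p was 0.622 (limma). At an unadjusted p below 0.05, 3 were higher in the knockout (0.996% of all genes) and 2 were lower (6.95%). The difference was above 0 for 71 of the 114 (36.3% of all genes), and the median was 0.04. The same 3 genes (Ppp1r15a, Slc38a2 and Slc43a1) had every knockout array above every wild-type array (1.83% of all genes), and the same 2 (Cth and Ern1) had every knockout array below (8.67%). Slc43a1 was well above background only on the knockout arrays.

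Upstream of ATF4, the 4 eIF2 kinase genes lay between -0.17 and 0.08. Of 12 genes for eIF2, eIF2B and the eIF2 phosphatases, 2 were above 0 (36.3% of all genes) and the median was -0.02. The exception that separated the genotypes was Ppp1r15a, which encodes GADD34, the stress-induced subunit that directs a phosphatase to eIF2 and ends the response. Ppp1r15a had levels of 4.71, 4.59 and 4.76 on the knockout arrays, against 3.95, 3.88 and 4.49 on the wild-type arrays. Its difference of 0.58 (SE 0.20) was 0.76 on slide 1 and 0.49 on slide 2 and did not pass (adjusted p = 0.622, limma). Eif2b2, a subunit of the exchange factor that recharges eIF2, had a difference of -0.83 (SE 0.60) that rested on knockout replicate 3, at 1.44, against 3.51 to 3.90 on the other knockout arrays and 3.63 to 3.96 in wild type, and was -0.079 without it.

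Among the bZIP partners and regulators of ATF4, 4 of 8 were above 0 (36.3% of all genes) and the median was 0.09. Atf3, an immediate stress factor, had levels of 6.02, 4.55 and 4.67 on the knockout arrays, against 3.89, 3.76 and 5.32 on the wild-type arrays. Wild-type replicate 3 again lay above part of the knockout arrays, and the difference of 0.76 (SE 0.54) was 2.13 on slide 1 and 0.07 on slide 2. Without knockout replicate 1 it was 0.29, and without wild-type replicate 3 it was 1.26. Cebpa, a C/EBP factor, gave 0.48 (SE 0.31), and 0.15 without knockout replicate 2. Of 15 further stress effectors, 10 were above 0 (36.3% of all genes) and the median was 0.06. Cth, which makes cysteine from cystathionine, ran the other way, with levels of -2.07, -2.69 and -1.91 on the knockout arrays, against -1.83, -1.12 and -1.02 on the wild-type arrays. The Cth difference of -0.90 (SE 0.30) did not pass (adjusted p = 0.622, limma), and every knockout array lay below every wild-type array. Nupr1, a small chromatin protein induced by stress, gave 0.89 (SE 0.65), with knockout replicate 2 at 3.65 and the other arrays between 0.58 and 1.82. The Nupr1 difference was 0.14 without knockout replicate 2.

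The amino acid transporters had the largest median of the 10 pathway lists, 0.33, with all 8 tested members above 0 (36.3% of all genes). For 2 of them every knockout array lay above every wild-type array (1.83% of all genes). Of these 2, Slc43a1 was dim on every wild-type array. Slc38a2, a transporter of small neutral amino acids induced by their absence, had levels of 6.40, 5.91 and 6.09 on the knockout arrays, against 5.52, 5.71 and 5.82 on the wild-type arrays. Its difference of 0.45 (SE 0.18) did not pass (adjusted p = 0.627, limma). Slc43a1, which carries large neutral amino acids, had levels of -3.29, -1.73 and -2.42 on the knockout arrays, against -3.49, -3.68 and -4.61 on the wild-type arrays. The probe was well above background on all 3 knockout arrays and on 0 of 3 wild-type arrays, so it entered the test only through the genotype where it is high. With wild-type signals below the lowest one well above background raised to it, the knockout mean was 2.60-fold higher. Slc43a1 did not pass (adjusted p = 0.622, limma). The measured difference was 1.45 (SE 0.45), with 0.20 on slide 1 and 2.07 on slide 2, and 0.61 after normexp background correction. Slc1a5, a glutamine carrier, gave 0.58 (SE 0.37), and 0.21 without knockout replicate 2. Slc7a11, the cystine transporter, stayed below the background criterion on all 6 arrays.

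The metabolic, tRNA charging and mitochondrial lists had medians near 0. Serine, one-carbon and proline synthesis had 5 of 12 above 0 (36.3% of all genes) and a median of -0.01. Phgdh, which commits glycolytic carbon to serine, gave 0.87 (SE 0.45), with -0.27 on slide 1 and 1.44 on slide 2, and 0.42 without knockout replicate 2. The 20 cytosolic aminoacyl-tRNA synthetases lay between -0.21 and 0.23 with a median of 0.02. Mitochondrial stress relay and chaperone genes had a median of 0.00, with 6 of 11 above 0 (36.3% of all genes). The receptors and co-receptors of GDF15 and FGF21 had a median of 0.03 over 5 tested.

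The ATF6 and XBP1 branches of the unfolded protein response act beside the eIF2 branch in the endoplasmic reticulum. They had 17 of 19 genes above 0 (36.3% of all genes) and a median of 0.14. That median was 0.60 on slide 1 and -0.04 on slide 2. Dnajc3, a chaperone that also inhibits eIF2 kinases, gave 0.27 (SE 0.17), and 0.14 without wild-type replicate 1. Ern1, which encodes the sensor IRE1-alpha, was below 0, with levels of -3.00, -3.19 and -2.89 on the knockout arrays, against -2.61, -2.65 and -1.53 on the wild-type arrays. Its difference of -0.76 (SE 0.32) did not pass (adjusted p = 0.627, limma) and was -0.39 without wild-type replicate 3.

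**Figure D4:**
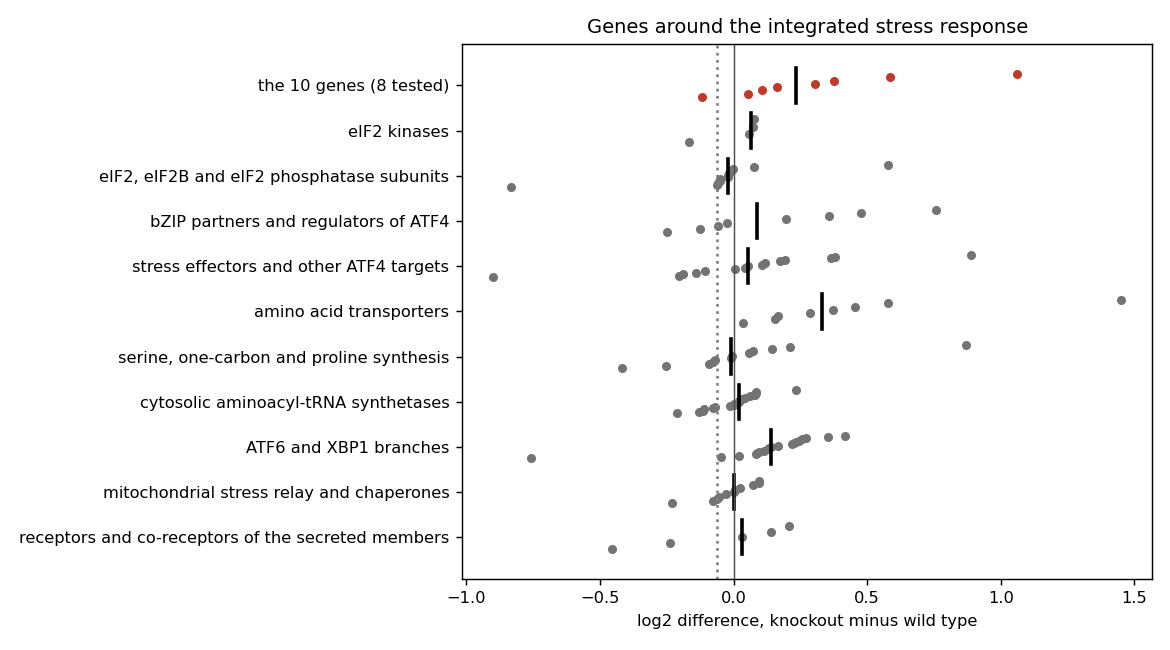
Log2 differences, knockout minus wild type, of the tested genes in each pathway list, with the 8 members on top in red. Points are genes, black bars list medians, and the dotted line is the median of all genes tested, -0.06. The members have a median of 0.23 and the amino acid transporters 0.33, while the synthetases lie within -0.21 to 0.23.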

How the data were processed

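Per the file headers, the deposited scanner files come from Agilent Feature Extraction 10.7.3.1. Each holds for each spot a processed intensity, which is background-subtracted and not normalized between arrays, the mean and background intensity, and flags. Probe coordinates follow mm9, per the file headers. The deposited value table holds intensity with a median of 69.7 and the same distribution on every array, as quantile normalization gives, and the ranks of the processed intensity. Its tool is not named in the sources used here.

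The log2 of the processed intensity minus the 75th percentile of the array (774 to 1152 over arrays) was taken, without 3671 control spots per array and outlier spots. A probe was kept if it was well above background on 3 or more of 6 arrays (29989 probes), with each gene read by its probe of highest mean (21888 genes). Of 55681 probes, 32 had no usable spot on some array. Names came from RefSeq by accession for 26411 probes, by symbol for 3984 and by synonym for 826. The other 24428 probes kept their name on the array. Genotypes were compared with limma 3.58.1 (R 4.3.3, lmFit and eBayes, Benjamini-Hochberg over all genes). The procedure was also run on simulated arrays with independent noise, which held no slide or cell-mixture effect. With 3 arrays per genotype, an exact permutation test reaches no p below 0.10.

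Members and lists were chosen with earlier results of these data known. Named were all members, H19, up to 3 genes of each list by p and the 3 genes with established symbols most like Atf4. Of those list genes, a part is given. Alternatives were normexp (offset 50), quantile and median scaling, the deposited table, other filters, averaged probes, a block for slide or for replicate number, a trended robust prior, array weights and leaving out each array.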

Additional observations from a re-analysis of the deposited data

How the results depend on the processing

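No member passed the threshold under any of 17 alternatives, where the lowest adjusted p of a member was 0.0512 (limma, Gdf15 without wild-type replicate 3). Between 4 and 8 of the 8 tested members were above 0, with the 4 under array weights, and Atf4, Ddit3, Atf5 and Gdf15 were above 0 in all 17. The median of the members was 0.67 after scaling to the median of all probes, where the median of all genes was 0.37, 0.095 under array weights, and 0.17 to 0.39 with 1 array left out.

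The number of genes past the threshold, 7, became 3 after quantile normalization, 3 in the authors' deposited table, 118 after scaling to the median of all probes (101 higher and 17 lower, against 1 higher and 6 lower), 1 with no filter on dim probes, 1 with slide as a block and between 1 and 10 with 1 array left out. It was 1 without knockout replicate 1, 2 or 3 or wild-type replicate 2, 4 when wild-type replicate 1 was left out and 10 when wild-type replicate 3 was. With the replicate number as a block it was 1, and no member was called. Deviations of same-numbered arrays from their genotype means correlated at -0.22, -0.05 and 0.04. With 3 arrays per genotype these values cannot tell whether the numbers pair the samples, and replicate 1 of both genotypes shares slide 1.

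Of 388 differences of single genes under an alternative, 375 kept their direction and side of the threshold, 12 changed sign and 1, Slc43a1 at 1.89 after scaling to the median of all probes, passed (its probe was not well above background on any wild-type array, and it gave 0.61 under normexp). Cebpa was 0.15 under normexp and 0.84 after quantile normalization, and Ern1 was -0.40 after quantile normalization. Sesn2 changed sign to 0.045 after quantile normalization, 0.32 after median scaling and 0.032 in the authors' deposited table. Under array weights, fitted gene by gene, Trib3 became -0.068, Asns -0.056 and Chac1 -0.48. With 1 array left out, Sesn2 ranged from -0.32 to 0.011 (above 0 without wild-type replicate 2), Trib3 from -0.16 (without wild-type replicate 3) to 0.40, and Asns from -0.040 (without knockout replicate 2) to 0.15. Chac1 ranged from -0.33 to 0.74 and was below 0 when knockout replicate 3, wild-type replicate 1 or wild-type replicate 3 was left out. The cause was not tested. The number of arrays and the signal over background, which left Mthfd2 and Fgf21 untested, limit what can be detected.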
